A study of Mus musculus with 2 samples.

Results

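The genes described here are those of endoplasmic reticulum (ER) protein folding and of the unfolded protein response, measured in mouse teratomas, tumours that transplanted pluripotent stem cells form and that hold many differentiated tissues side by side. The set holds 36 genes of the 12393 on the array with a probe set of their own. They were chosen by name from knowledge of the pathway, though with earlier results of these data known. They have 77 of the 20380 probe sets that carry a single gene symbol. The first array held RNA from 2 teratomas of C57BL/6 (B6) embryonic stem cells (the B6 ES pool). The second held RNA from 2 teratomas of EiPS cells, which are induced pluripotent stem cells of B6 strain named 1E12 iPS in the source label. Those tumours are called regression teratomas in the design text (the EiPS pool). All cells had been placed under the skin of male B6 mice, and tumours were taken at week 6. A teratoma also contains host vessels and blood cells, and the age of the mice is not given in the sources used here. With 1 array per group there is no replicate, so no test, standard error or p-value is given, and each difference compares these 2 pools rather than the cell lines.

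The ER is where secreted and membrane proteins are folded, given disulphide bonds and sugars, and passed on to the Golgi. When unfolded protein builds up, 3 membrane sensors respond: ATF6 and IRE1 (gene Ern1), which through its target XBP1 raises chaperones and degradation factors, and PERK (gene Eif2ak3), which slows translation and raises ATF4 and CHOP (gene Ddit3). Cells that secrete heavily, such as goblet, gland and plasma cells and matrix-forming fibroblasts, are known for high levels of the folding genes without acute stress.

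Many chaperone genes share a short promoter sequence, the ER stress element, to which ATF6 and XBP1 bind together with the factor NF-Y. It reads CCAAT, then 9 bases of any kind, then CCACG, and it was searched on both strands of the RefSeq promoter windows (GRCm38.p6, 250 bases before to 50 bases after each start). Of the 36 members, 30 had a window (Hyou1, Manf, Atf6, Creb3l1, Derl1 and Sec61a1 had none). Of these 30 genes, 8 (26.7%) held the element, against 37 of all 27025 genes with a window (0.137%). Among all 32851 windows, 39 held it (0.119%). The end of the element alone, CCACG, was in the windows of 23 of the 30 and of 35.5% of all genes. The matches show which members carry a known stress sequence beside their values. They are printed 5′ to 3′ on the gene's strand, with the element in capitals and up to 20 bases on either side; in Calr, Creld2 and the second match of Hsp90b1 the element lies in reverse orientation.
Hspa5: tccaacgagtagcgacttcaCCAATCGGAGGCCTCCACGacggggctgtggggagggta
Hsp90b1, first match: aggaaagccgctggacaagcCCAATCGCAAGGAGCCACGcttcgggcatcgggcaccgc
Hsp90b1, second match: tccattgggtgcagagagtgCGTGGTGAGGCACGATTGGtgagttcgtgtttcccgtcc
Dnajc3: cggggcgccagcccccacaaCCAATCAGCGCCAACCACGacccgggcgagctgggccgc
Calr: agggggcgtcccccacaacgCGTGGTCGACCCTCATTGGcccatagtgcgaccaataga
Canx: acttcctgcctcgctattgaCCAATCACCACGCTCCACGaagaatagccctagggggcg
Pdia6: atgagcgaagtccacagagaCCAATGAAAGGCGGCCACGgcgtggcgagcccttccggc
Creld2: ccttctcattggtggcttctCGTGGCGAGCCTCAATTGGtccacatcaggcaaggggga
Syvn1: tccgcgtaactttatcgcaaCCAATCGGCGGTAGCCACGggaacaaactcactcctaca

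These stretches lie at chr2:34772005-34772063 (Hspa5, plus strand), chr10:86705618-86705676 and chr10:86705513-86705571 (Hsp90b1, minus strand), chr14:118937807-118937865 (Dnajc3, plus strand) and chr8:84847055-84847113 (Calr, minus strand). The others lie at chr11:50325780-50325838 (Canx, minus strand), chr12:17266471-17266529 (Pdia6, plus strand), chr15:88819500-88819558 (Creld2, plus strand) and chr19:6046512-6046570 (Syvn1, plus strand), all upstream of the annotated start of the gene named. A second form, ATTGG and CCACG with 1 base of any kind between them, was found in Herpud1 and Dnajb11 and in 0.0365% of windows. In Dnajb11 it lies just inside the transcript and is not printed. The ATF4 site TTGCATCA was found in Chac1 and Herpud1 and in 0.895% of windows, and its variant TTTCATCA in Asns, in reverse orientation, and in 1.02% of windows. Another XBP1 sequence, TGACGTGG, was in no member's window and in 0.676% of all. The matches in Herpud1, Chac1 and Asns are shown because these genes are known targets of the PERK and ATF4 branch.
Herpud1, second form: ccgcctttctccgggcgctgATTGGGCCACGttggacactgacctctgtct
Herpud1, ATF4 site: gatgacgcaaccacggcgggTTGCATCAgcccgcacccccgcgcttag
Chac1, ATF4 site: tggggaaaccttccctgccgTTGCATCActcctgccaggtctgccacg
Asns, variant site: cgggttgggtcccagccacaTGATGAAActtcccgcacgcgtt

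The first and second Herpud1 stretches lie at chr8:94386357-94386407 and chr8:94386297-94386344 (plus strand), that of Chac1 at chr2:119351029-119351076 (plus strand) and that of Asns at chr6:7693210-7693252 (minus strand).

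The ER folding and stress genes differed little between the pools. Judged by each gene's brightest probe set (highest mean of the log2 signals), none of the 36 members was 2-fold higher or 2-fold lower with EiPS, whereas 5.79% of all 10962 measured genes were higher and 3.05% lower by that much. Differences ran from -0.40 for Ssr1 to 0.64 for Ddit3 on the log2 scale. Only Ddit3 was at least 1.5-fold higher and no member 1.5-fold lower, against 15.2% and 9.31% of all genes. Measured means at or above the signal floor of 25.8 on 1 array or both, a level set from the signals of olfactory, vomeronasal and taste receptor genes, and 35 members were above it on both. Differences are given on the log2 scale as EiPS minus B6 ES, and folds are taken from them. In bulk tissue, fewer cells of a type and less RNA per cell cannot be told apart.

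Members are brighter than most genes, and bright genes differ less, so genes with a mean signal of 100 or more are the closer background. Of 8646 such genes, 54% were higher by any amount, 3.89% reached 2-fold higher and 2.94% reached 2-fold lower, and 11.8% and 8.93% passed 1.5-fold. The median size of the difference, without its sign, was 0.20 over the 35 members in that range and 0.28 over all genes in it. At signals of 1000 and over, where 16 members lie, it was 0.22 for the members and 0.25 for all 2180 genes, a smaller gap. These medians describe the arrays, with no test.

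**Figure D1:**
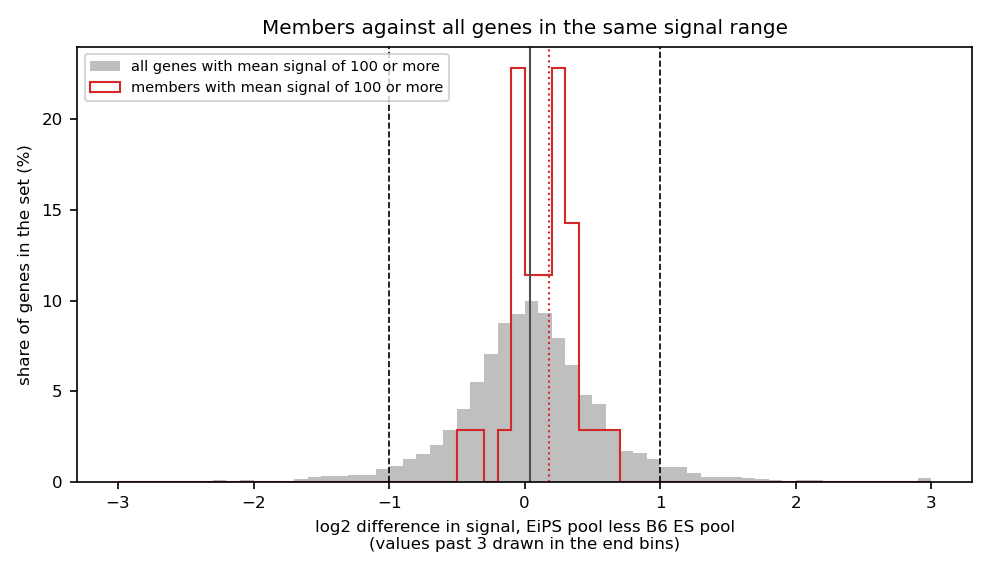
Share of genes (%) by log2 difference in signal, EiPS pool less B6 ES pool, for all 8646 genes with a mean signal of 100 or more (grey) and the 35 members in that range (red outline); the solid line is the median of all genes, the dotted line that of the members, and dashed lines mark 2-fold. All members lie inside the 2-fold lines, between -0.40 and 0.64.

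The members leaned slightly to the EiPS side, by an amount that depended on the processing. Of the 36, 25 were higher and 11 lower in the EiPS pool by their chosen probe sets, with a median of 0.17; the 25 include Ern1, which lies at the floor and is given no direction below, and without it the counts were 24 and 11 and the median 0.18. Of all measured genes, 56.2% were higher, with a median of 0.07. At a mean signal of 100 or more, 68.6% of the 35 members and 54.0% of all genes were higher, with medians of 0.18 and 0.04. At 1000 and over, 68.8% of the 16 members and 46.1% of all genes were higher, with medians of 0.19 and -0.03. The gap between members and background was thus wider among bright genes. When both arrays were set to the same median, the median of all genes moved to -0.06 and that of the members to 0.06, with 20 members higher and 16 lower. The members' lead over all genes was 0.11 with the deposited scaling and 0.12 with equal medians. It was 0.02 when a gene's probe sets were averaged and 0.03 when probe sets shared by several transcripts were left out. Equal medians thus changed the lead less than averaging or leaving out shared probe sets did. Averaging and leaving out also changed the genes compared, with 34 and 31 members and 10710 and 9080 of all genes measured. The choice of probe set and the loss of genes cannot be told apart there.

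**Figure D2:**
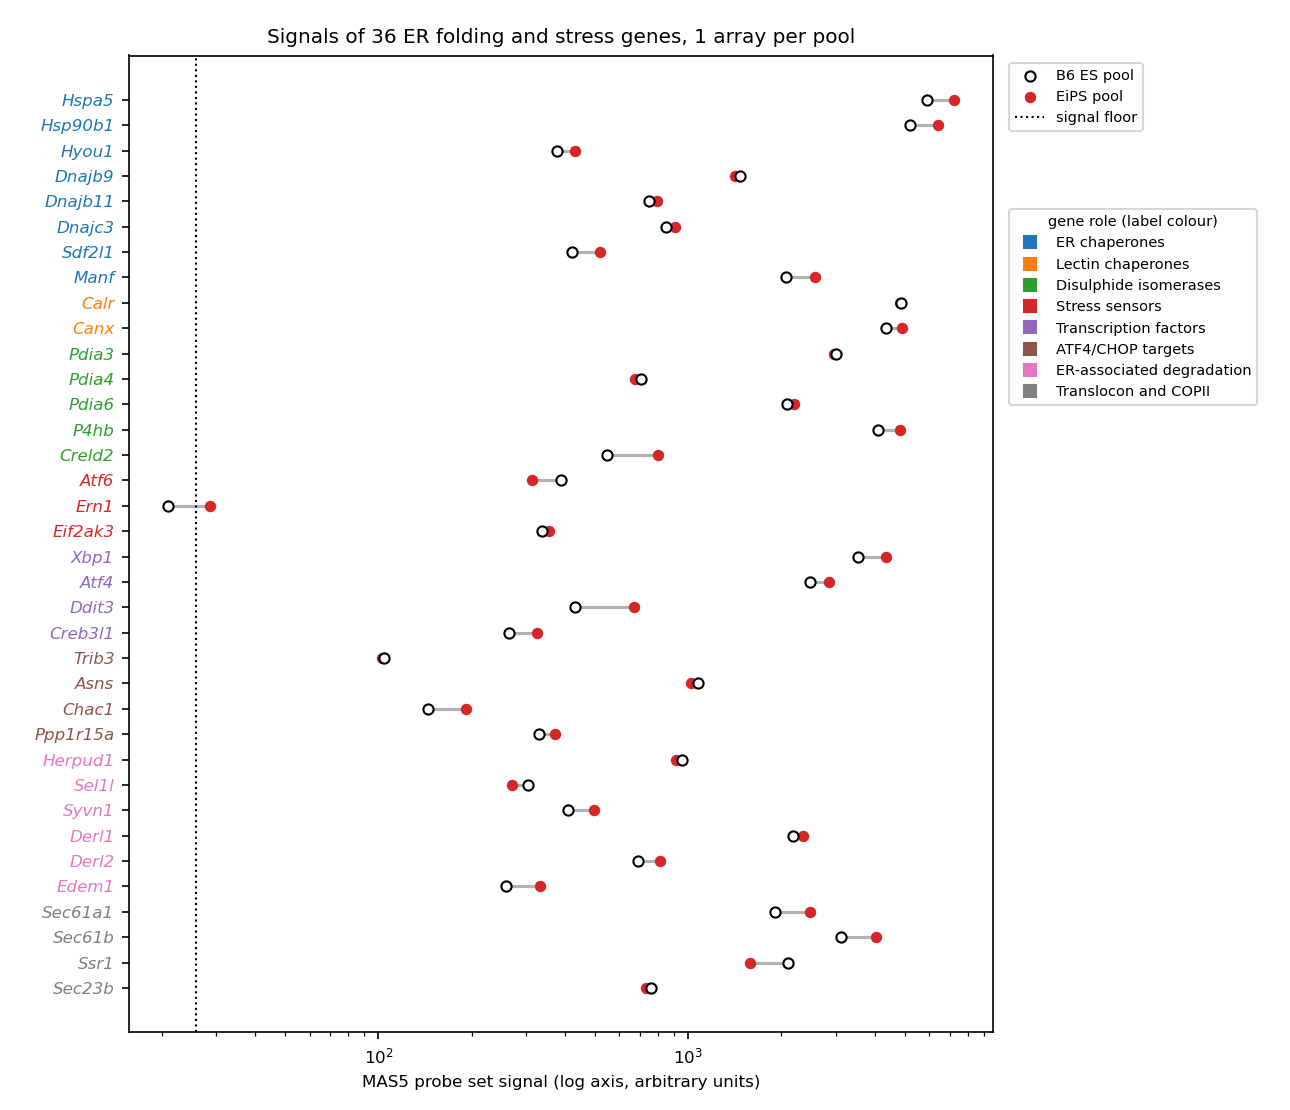
Signal of each of the 36 members on the 2 arrays (log axis, open circle for the B6 ES pool, filled for the EiPS pool), with gene names coloured by role and the signal floor of 25.8 dotted. The pairs of points lie close together for every gene; Ern1 is the only member at the floor, and signals of different genes are not comparable.

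Chaperones of the ER lumen leaned to the EiPS side, 7 of 8 being higher there, against 56.2% of all measured genes. After equal medians 5 of 8 were higher (44.7% of all genes), as Dnajb11 and Dnajc3 changed sign. Without shared probe sets, which leaves out Hspa5 and Hsp90b1, 4 of 6 were higher (55.2% of all genes), with a median of 0.09. Hspa5, which encodes BiP, the chief chaperone and a standard readout of ER stress, had signals of 5916 (B6 ES) and 7218 (EiPS), a 1.22-fold difference. Pairs of signals are given in that order from here on. Its second probe set, at 3488 and 3932, differed by 1.13-fold in the same direction. The element printed for Hspa5 above therefore stands in a gene that was only slightly higher.

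Hsp90b1 (GRP94), a partner chaperone of BiP, was 1.23-fold higher, with signals of 5221 and 6413, and 1.37-fold higher by its second probe set (1037 and 1425). Sdf2l1, a BiP-associated cofactor, had 422 and 520 (1.23-fold). Manf, a secreted protein that binds BiP, had 2068 and 2566 (1.24-fold). By their brightest probe sets, all well above the floor, these 4 genes were higher by nearly the same fold.

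The co-chaperones that regulate BiP differed less. Dnajb9 had signals of 1470 and 1416, Dnajb11 of 749 and 794, and Dnajc3 of 847 and 907, folds of 1.04 lower, 1.06 higher and 1.07 higher. The 5 probe sets of Dnajc3 ranged from -0.17 to 0.26. Hyou1, the nucleotide exchange factor of BiP, was 1.14-fold higher by a shared probe set (377 and 431), but a second probe set had 143 and 63.4, a difference of -1.17. The direction for Hyou1 is therefore not settled by these arrays.

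The lectin chaperones, which hold sugar-bearing proteins until they fold, were close to equal. Calr (calreticulin) had 4856 and 4819, and its 3 probe sets stayed between -0.01 and 0.07. Canx (calnexin) had 4350 and 4899, 1.13-fold higher, while its other probe sets differed by -0.04 and -0.22. Calr, with 3 bright probe sets near 0, is among the best measured members.

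Disulphide isomerases, which form and shuffle disulphide bonds, were mostly level as well. Pdia3 had signals of 2999 and 2959, Pdia4 of 704 and 674, and Pdia6 of 2091 and 2200, of which Pdia6 lay farthest apart at 1.05-fold. P4hb, which serves both as an isomerase and as the subunit of the collagen prolyl 4-hydroxylase, had 4107 and 4840, 1.18-fold higher. Creld2, a stress-induced protein of the ER lumen, differed most in the group, with 548 and 801, or 1.46-fold higher. The group had 3 higher and 2 lower genes and a median of 0.07, which turned to -0.05 with equal medians.

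The 3 sensors differed in direction, with 2 higher, 1 lower and a median of 0.08 by the chosen probe sets. That median fell below 0 under 5 of the 8 alternatives, most of which left out Ern1. Atf6, the sensor that is cut at the Golgi and enters the nucleus, had signals of 387 and 314, 1.23-fold lower. Eif2ak3, the kinase PERK, had 338 and 356 (1.05-fold higher). Ern1, the kinase and nuclease IRE1, was at the limit of detection on both arrays. Its probe set with the highest mean had 21.0, under the floor, and 28.6, at least 1.11-fold higher, and another had 33.4 and 8.85, the opposite direction. No direction is given for Ern1 on that account.

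The transcription factors were all 4 higher by their chosen probe sets (56.2% of all measured genes were), with a median of 0.30. Without shared probe sets 3 of 4 were higher (55.2% of all genes), as Xbp1 then had -0.19. Ddit3, which encodes CHOP, the factor linked to death under lasting stress, had the largest difference of all members, with 431 and 671 by its single probe set, 1.56-fold higher. Atf4, the factor upstream of it, had 2472 and 2849 (1.15-fold) and by a second probe set 1021 and 1470 (1.44-fold). Creb3l1, an ATF6-like factor that drives collagen secretion, had 265 and 325 (1.23-fold). With equal medians the difference of Ddit3 was 0.51, under the 1.5-fold line at 0.58.

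Xbp1 was less clear. It is the target that IRE1 splices and a marker of secretory cells, and its 4 probe sets had signals of 3541 and 4347, 2423 and 2333, 1319 and 1467, and 150 and 132. Their differences were 0.30, -0.05, 0.15 and -0.19. The array does not tell spliced from unspliced Xbp1 here, so IRE1 activity was not measured.

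Targets of ATF4 and CHOP did not move together. Chac1, an enzyme that breaks down glutathione, was 1.33-fold higher (145 and 192), and Ppp1r15a (GADD34), which restores translation, 1.13-fold higher (330 and 373). Asns, asparagine synthetase, was level at 1079 and 1025, with its second probe set at 938 and 907. Trib3, a pseudokinase strongly induced by CHOP, had 104 and 102, and 101 and 105 by its second probe set. Thus Ddit3 had the largest member difference while Trib3 and Asns, both known to respond strongly in the same branch, were 1.02-fold and 1.05-fold lower by the chosen probe sets.

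Genes of ER-associated degradation, which returns misfolded protein to the cytosol, were divided. Edem1, a lectin that selects misfolded glycoproteins, was 1.28-fold higher (259 and 333) and 1.76-fold higher by its second probe set (203 and 358). Syvn1, the ubiquitin ligase, had 409 and 496 (1.21-fold higher), and its partner Sel1l 304 and 270 (1.13-fold lower). Both belong to 1 complex, and their chosen probe sets had opposite signs. The 4 probe sets of Sel1l ran from -0.24 to 0.69 and gave 0.01 when averaged, so its direction is not settled.

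The remaining genes of that group depended on the probe set. Herpud1, a scaffold of the complex and a sensitive stress target, had 952 and 914 by the chosen probe set and 663 and 469 by the other, both lower. Derl1, a channel protein, had differences of 0.10, 0.12, -0.21 and -0.50 over its 4 probe sets, and Derl2 of 0.23 and -0.36. The group had 4 higher and 2 lower genes, with a median of 0.17, which was -0.03 with probe sets averaged.

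Among genes that bring protein into and out of the ER, the translocon subunits Sec61a1 and Sec61b were both 1.30-fold higher. Sec61a1 had signals of 1907 and 2470, and Sec61b of 3125 and 4055. Ssr1, a subunit of the translocon-associated complex, was 1.32-fold lower (2097 and 1588), though its 2 dimmer probe sets differed by 0.09 and 0.22. Sec23b, a coat protein of the vesicles that leave the ER, had 760 and 730. These 4 genes included both the lowest member and 2 of the higher ones.

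Sec61a1 had the widest spread of probe sets of all members. Its 6 probe sets, all above the floor on both arrays, differed by 0.37, 0.33, -0.23, -0.41, -1.22 and 1.75. The last of these had signals of 77.7 and 262 and the one before it 1183 and 507, both past 2-fold in opposite directions. The parts of the transcript that they measure were not examined here, so the value of 0.37 stands for the brightest probe set only.

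**Figure D3:**
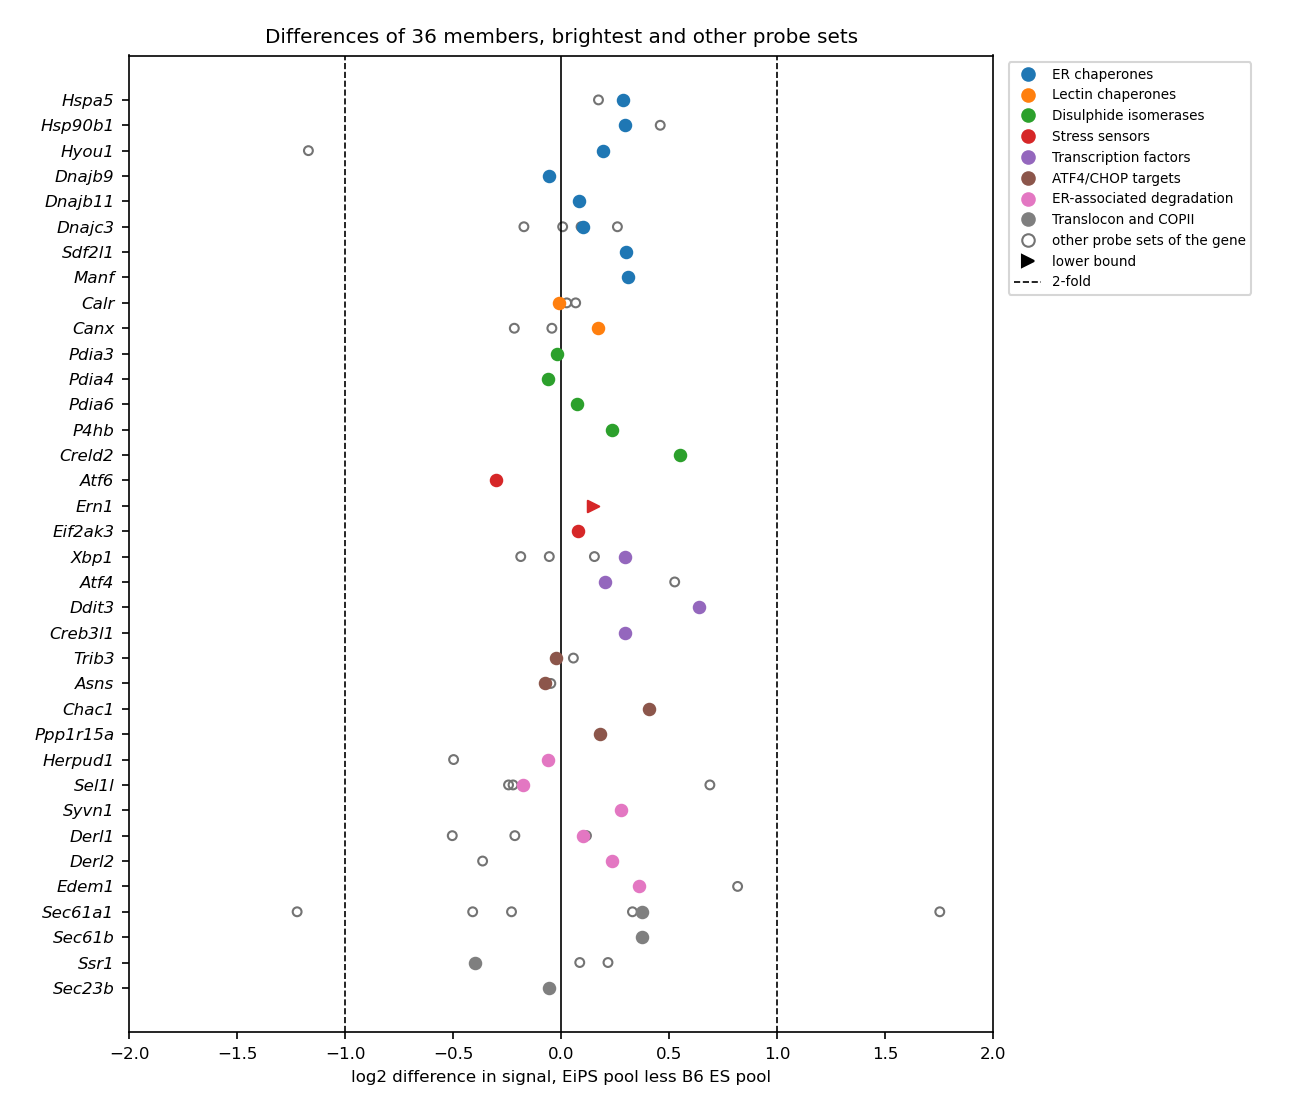
Log2 difference in signal (EiPS pool less B6 ES pool) of the 36 members; filled points are the probe set with the highest mean signal, coloured by role, open points its other probe sets with both signals over the floor, the triangle a lower bound, and dashed lines 2-fold. All filled points lie inside 2-fold, while single probe sets of Hyou1 and Sec61a1 lie outside it.

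Over all member probe sets, 68 were above the floor on both arrays, of which 41 were higher and 27 lower, with a median of 0.09. Over all 16046 probe sets of that kind, 53.8% were higher and the median was 0.04. Of the 17 members with several such probe sets, 11 had probe sets of opposite sign. The SD between probe sets of 1 gene, the nearest gauge of measurement noise, was 0.34 on the log2 scale at signals of 100 to 1000 and 0.19 at 1000 and over (0.54 under 100). Over the 17 members with several probe sets it was larger, at 0.48, raised strongly by Sec61a1 with differences from -1.22 to 1.75. This gauge leaves out variation between tumours, arrays and labelling. Of the 36 differences, 23 were no larger than the SD of all genes at their signal level. Against the members' SD, 34 were no larger, all but Ddit3 and Creld2, a count that was not repeated without Sec61a1.

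Of the 8 members with the ER stress element, 7 were higher in the EiPS pool, beside 56.2% of all measured genes. Their differences ran from -0.01 for Calr to 0.55 for Creld2, with a median of 0.23. With equal medians 5 of the 8 were higher (44.7% of all genes), as Dnajc3 and Pdia6 changed sign. With probe sets averaged 6 of 8 were (57.0% of all genes), with Canx and Pdia6 lower. After quantile normalization all 8 were higher (50.1% of all genes). Without shared probe sets, which leaves out Hspa5, Hsp90b1 and Calr, 4 of 5 were higher (55.2% of all genes), with a median of only 0.10. With the deposited scaling and brightest probe sets, the 22 members whose window lacks the element had a median of 0.12. They ran from -0.40 to 0.64, with 13 higher. The ranges overlapped throughout, and Ddit3, with the largest difference, is among the genes without a match. The 2 genes with the ATF4 site went opposite ways, Chac1 at 0.41 and Herpud1 at -0.06.

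The other genes of the pathway, 136 measured of 138 on the array in 6 lists, had a few larger differences than the members, from -1.05 to 1.30. Of these 136, 76 were higher and 60 lower, 2 reached 2-fold higher and 1 reached 2-fold lower, and the median was 0.08. At 1.5-fold the counts were 5 higher (3.68%) and 7 lower (5.15%). All genes had 15.2% and 9.31% at 1.5-fold and 5.79% and 3.05% at 2-fold, set beside these counts as a description.

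Other folding genes leaned to the EiPS pool, with 17 of 23 higher (56.2% of all measured genes were), a median of 0.19 and 0.06 with equal medians. Ero1a, the oxidase that recharges the isomerases, stood apart at 2.33-fold higher (313 and 729), and its probe sets all had the same sign, from 0.71 to 1.78. Prdx4, a peroxiredoxin of the ER, was 1.62-fold higher (1173 and 1896), the calcium-binding protein Sdf4 1.58-fold (1278 and 2022, but 0.15 by another probe set) and the co-chaperone Dnajc1 1.49-fold. Degradation genes outside the member list had a median of -0.16, with 11 of 17 lower. The ubiquitin ligase Rnf5 was 1.65-fold lower (1401 and 850), the conjugating enzyme Ube2g2 1.48-fold and Edem3, a mannosidase-like protein, 1.41-fold lower, while the mannosidase Man1b1 was 1.39-fold higher.

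Among other regulators, 7 of 15 were higher and the median was -0.01. Wfs1, an ER membrane protein lost in Wolfram syndrome, was 2.07-fold lower (645 and 312). Creb3l2, a relative of Creb3l1 that serves matrix secretion, was 1.48-fold higher (390 and 579), the amino acid sensor kinase Eif2ak4 1.33-fold and the RNA ligase Rtcb, which joins spliced Xbp1, 1.20-fold.

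Of 26 further targets linked to ATF4, 15 were higher and 11 lower, with a median of 0.08 that turned to -0.04 with equal medians. Vegfa, the vessel growth factor, was 2.47-fold higher (267 and 659). The amino acid carriers Slc7a3 and Slc7a5 were 1.96-fold lower (382 and 195) and 1.73-fold lower (1936 and 1117), and the serine enzyme Psph 1.69-fold lower (671 and 396). In all, 1 gene of the 26 (3.85%) was at least 1.5-fold higher and 4 (15.4%) were at least 1.5-fold lower, beside 15.2% and 9.31% of all genes.

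Translocation and glycosylation genes had a median of 0.08 over 28 genes and a single one past 1.5-fold, Tusc3, an oligosaccharyltransferase subunit, at 1.77-fold lower (2692 and 1517). Dpm1, which makes the mannose donor, was 1.43-fold lower, Sec63 1.37-fold and the signal peptidase Sec11a 1.29-fold higher. Of 27 genes of transport between ER and Golgi (median 0.09), Kdelr3, a receptor that returns escaped chaperones to the ER, was 1.69-fold higher (326 and 552). Copb2 was 1.40-fold higher by one probe set and differed by -0.04 by another, Lman2 was 1.37-fold higher and Sec23a 1.32-fold lower. Both medians fell below 0 with equal medians, at -0.05 and -0.04.

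ER genes restricted to certain tissues or to collagen differed more than the members and the other lists. The list has 19 genes, of which 14 were on the array and 13 were measured. Of these 13, 10 were higher and 4 were at least 2-fold higher, with a median of 0.55. Of all measured genes, 56.2% were higher and 5.79% at least 2-fold higher. Plod2, a lysyl hydroxylase of collagen, was 3.51-fold higher (221 and 777), and the prolyl hydroxylase subunits P4ha2 and P4ha1 were 2.30-fold (282 and 647) and 2.18-fold higher (339 and 739). P4ha1 was just under 2-fold with equal medians and with log2(signal + 64). Their shared partner P4hb, a member, was 1.18-fold higher by its single probe set.

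The fourth was Ern2, the IRE1 form of gut epithelium, 2.30-fold higher with low signals of 71.0 and 164. Its difference was 0.71 with a floor of 100 and 0.75 with log2(signal + 64), both under 2-fold, and the list then had 3 and 2 genes past 2-fold. Bhlha15, a factor of gland cells, had 41.2 with B6 ES and was under the floor with EiPS, at least 1.60-fold lower. Ero1a, Plod2, P4ha1, P4ha2 and Vegfa are also known as genes that low oxygen induces, a textbook property that was not tested here.

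**Figure D4:**
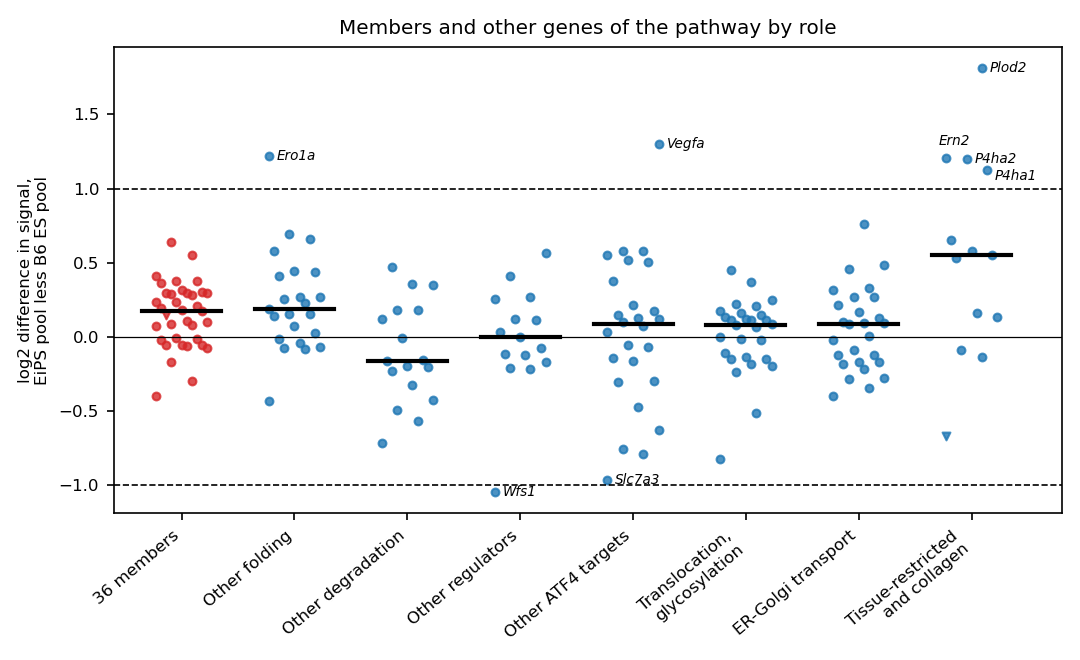
Log2 difference in signal (EiPS pool less B6 ES pool) of the 36 members (red) and of the measured genes of 7 further ER lists (blue), with list medians as black bars, bounds as triangles and 2-fold dashed. List medians lie between -0.16 and 0.19 except that of tissue-restricted and collagen ER genes, at 0.55; with equal medians the ATF4, translocation and transport medians fall just below 0.

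Some markers of cell types with a large ER differed between the pools by more than any member did. Of 7 goblet cell markers, 4 were higher by 2-fold or more with EiPS, and the summed signal of all 7 was 1345 and 6135. The secretory genes Zg16 and Tff3 lead that list at 5.72 and 2.80. Agr2, the goblet cell isomerase, had 618 and 580, but another of its probe sets differed by 1.08. The goblet factor Spdef had 97.7 and 89.0. All 7 liver and yolk sac markers were higher, 6 by at least 2-fold, with sums of 10697 and 18998. Ttr, at 1.52-fold higher, alone made up 8629 and 13102 of these. Ahsg, Serpina1b and Fgb were under the floor with B6 ES, so their differences are bounds. Of the 9 fibroblast and matrix markers, all were higher, 1 of them at least 2-fold, with sums of 47559 and 59892, and a median of 0.35. Col1a1, Col1a2, Col3a1, Dcn and Sparc, the brightest of them, were only 1.03-fold to 1.27-fold higher, within the range of the members.

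Most exocrine gland and plasma cell markers had low signals. The 7 exocrine markers summed to 448 and 1054, with Cpa1 and Pnliprp1 under the floor on both arrays, and of 5 measured, 3 were higher, 2 of them at least 2-fold, and 2 were lower. The 6 plasma cell markers summed to 1005 and 1931, of which Sdc1 alone made up 665 and 1343, with Irf4 and Tnfrsf17 under the floor on both. All 4 measured ones were higher, 2 of them at least 2-fold. The cartilage markers summed to 484 and 910, with Matn1 under the floor on both and members in both directions. Of the 7 macrophage markers 5 were lower, with a median of -0.14, but their sums were 8152 and 12034, because Lyz2 (4103 and 7924) and Cd68 were higher.

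Markers of muscle fibres and neurons went the other way. All 8 skeletal muscle markers were at least 2-fold lower (sums of 39319 and 7945), and all 7 neuronal markers were lower, 3 of them at least 2-fold (sums of 18290 and 8274). The part of these cell types in the small differences of the ER genes was not tested.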

How the data were processed

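The authors deposited linear MAS5 intensity values per probe set from Affymetrix Expression Console (names per the submitters' processing notes, which as used here give neither version nor setting). Both arrays had a 2% trimmed mean of 500.2, and this scaling was kept. MAS5 subtracts mismatch signal, which makes low values noisy, and gives relative amounts only. Of 22690 probe sets, 20380 had a single gene symbol (64 are controls and 691 carry several symbols), updated by Entrez identifier for 20351 from a RefSeq table (GRCm38.p6). Each gene is represented by its brightest probe set (highest mean of the log2 signals). The floor is the 90th percentile over 71 probe sets of olfactory, vomeronasal and taste receptors. A signal under it on 1 array was raised to it, giving a bound ("at least"), and 1431 genes under it on both were left out.

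The members and the lists were chosen with earlier results of these data known. All members are named, and from each other list the 4 genes with the largest absolute difference, plus the largest of the other sign if both signs reached 1.5-fold. No test was made, since each group has 1 array, which limits the precision. Alternatives were quantile normalization, equal medians, 2 higher floors, no floor, log2(signal + 64), averaged probe sets and no shared probe sets. The procedure was tested on simulated data. Computation used Python 3.11.15, numpy 2.4.6 and pandas 2.3.3. Promoter sequences are RefSeq's, and protein sequences were not used here.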

Additional observations from a re-analysis of the deposited data

How the results depend on the processing

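No paired analysis was possible because each group has 1 array. Under none of the 8 alternatives was a member 2-fold higher, and 1 was 2-fold lower: without shared probe sets, Hyou1 fell to -1.17, which gave 1 member at least 2-fold and 1 at least 1.5-fold lower. The count of members at least 1.5-fold higher was 0 with log2(signal + 64) and 0 with equal medians, and 2 with probe sets averaged. The members' median stayed above 0, from 0.06 to 0.19. Besides Ern1, which was at the floor, 21 members kept their sign wherever they had a value. Medians of small groups that changed sign were all close to 0 on one side. For the sensors the median was -0.113 with a floor of 49.2 (98th percentile of receptor signals) and -0.113 with one of 100. It was -0.176 after quantile normalization, and Ern1 is left out under each of these. With equal medians the sensors' median was -0.0497. With probe sets averaged only Atf6 had a value, -0.30. With equal medians, a shift of the whole array, medians were -0.0453 for lectin chaperones, -0.0524 for disulphide isomerases, -0.0492 for ATF4 and CHOP targets, -0.0361 for other ATF4 targets, -0.0451 for translocation and glycosylation and -0.0393 for ER-Golgi transport. With probe sets averaged they were -0.00108 for lectin chaperones, -0.0264 for degradation members, 0.121 for other regulators and -0.0514 for other ATF4 targets. Without shared probe sets they were -0.043 for lectin chaperones (1 gene), -0.00133 for translocation and glycosylation and -0.070 for ER-Golgi transport. The cause of the changes with the choice of probe set was not tested. Signals near the floor limit what can be said of Ern1, Ern2 and Bhlha15.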
